A study of Mus musculus with 10 samples.

Results

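Transcripts listed under AK names were followed in RNA of the mouse striatum. An AK name is the accession number of a complementary DNA sequence, here AK and 6 digits, used as a symbol where no gene name was assigned. The count tables list 3054 such symbols among 32531, and 2025 of them had a read in the input library. The 200 with the highest count in that library were taken, with ties broken by name, and they are called AK transcripts from here on. They were thus chosen by their input counts. Every ratio to the input is therefore a description without a test, and a choice by high input counts favours low ratios.

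Full-length cDNA collections of the mouse hold many transcripts that carry no long open reading frame, are not spliced, or extend known genes beyond their annotated ends. A transcript found on ribosomes can be translated, whereas many long noncoding RNAs stay in the nucleus and meet few ribosomes. In translating ribosome affinity purification (TRAP), a ribosomal protein fused to a fluorescent protein marks the ribosomes of 1 cell type, and antibodies against the fluorescent protein pull these ribosomes down with the RNA they hold. A low ratio of purified to total RNA is therefore found both for RNA that is off the ribosomes and for RNA of cells without the tag.

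Adult mice of the line Chat-TRAP DW167 were used, which carry EGFP fused to the ribosomal protein Rpl10a under control of Chat, the gene that marks cholinergic neurons, and the whole striatum was taken. Ribosome-bound RNA came from 3 groups of 3 libraries, cocaine self-administration, yoked control and saline self-administration, and 1 input library of total RNA came from saline self-administration animals. All groups carry the same transgene. The labels do not say how many animals entered a library or what the yoked animals received, so p values measure the spread between these libraries, which may be technical. Values are counts scaled to a total of 1000000 gene counts in each library (CPM). CPM is not scaled to transcript length, which is not known for these symbols, so levels are compared between libraries and not between transcripts.

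Gene counts ranged from 24526765 to 75220922 in the purified libraries, and the input held 40912230. Reads that aligned to more than 1 place were not counted. They made up 36.3% to 57.1% of all reads in the purified libraries and 35.4% in the input. Whether each such read was tallied once or once per place is not given, so shares of all reads here may be shares of alignments. The library numbered 2 stood apart in each group: counts of libraries 1 and 3 differed by a chi-square of 42.2 to 66.1 per degree of freedom, and those of library 2 from either by 204 to 469. Same-numbered libraries carry the same index in the labels, except yoked library 2, for which none is listed. The labels give lane 4 for cocaine and yoked, lane 3 for saline and lane 5 for the input. Against saline or the input, a lane difference and a group difference cannot be told apart. All 12 cholinergic neuron markers lay above the input in the 3 saline purified libraries (median log2 ratio 5.36 ± 0.15, SD of the library medians, n = 3), and 50 of 51 markers of other cell types lay below it, with Pdgfra the exception. Over these 51 markers the median log2 ratio was −3.24 ± 0.54. In bulk RNA, fewer cells of a type and less RNA per cell cannot be told apart.

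None of the 200 AK transcripts matched a symbol in the RefSeq gene table, the promoter table, the miRNA table or the gene name table, so no position, length or sequence is given for them. AK010878 occurs in that RefSeq table only inside the compound name AK010878-Moap1, a synonym of Gm20604, and was not taken as a match.

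Most AK transcripts were lower in ribosome-bound RNA of cholinergic neurons than in total striatal RNA. Of the 200, 144 lay below the input in all 3 saline purified libraries (72%), 26 above it in all 3 (13%), and 30 on both sides. Over all 15888 symbols measured, those with at least 20 counts in the input or in the mean saline library, 44.9% lay below and 35.8% above. In 74 AK transcripts the ratio was at least 4-fold lower in every library (37%), and in 2 at least 4-fold higher (1%). Across all symbols measured, 12.9% were at least 4-fold lower and 3.56% at least 4-fold higher. At 2-fold, 98 AK transcripts were lower (49%) and 7 higher (3.5%), against 23.1% and 12.2% of all symbols measured. A purified count of 0 was set to 3 counts, while counts of 1 and 2 were kept, so a library with 0 reads can stand above one with 1 or 2. Of the 200, 24 had a saline library at 0 and 21 one with 1 or 2 counts. With every count under 3 set to 3, 74 AK transcripts were again at least 4-fold lower. Among the 10550 other symbols with at least 192 input counts, the count of the last AK transcript taken, 7.09% were at least 4-fold lower and 2.17% at least 4-fold higher. In the same set 16.6% and 11.8% passed 2-fold, and 41.3% and 41.4% lay below or above the input in all 3 libraries. The median log2 ratio over the 200 was −1.52 ± 0.05 (SD over the 3 library medians), which is 2.87-fold lower, against −0.0071 ± 0.06 over those 10550.

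**Figure D1:**
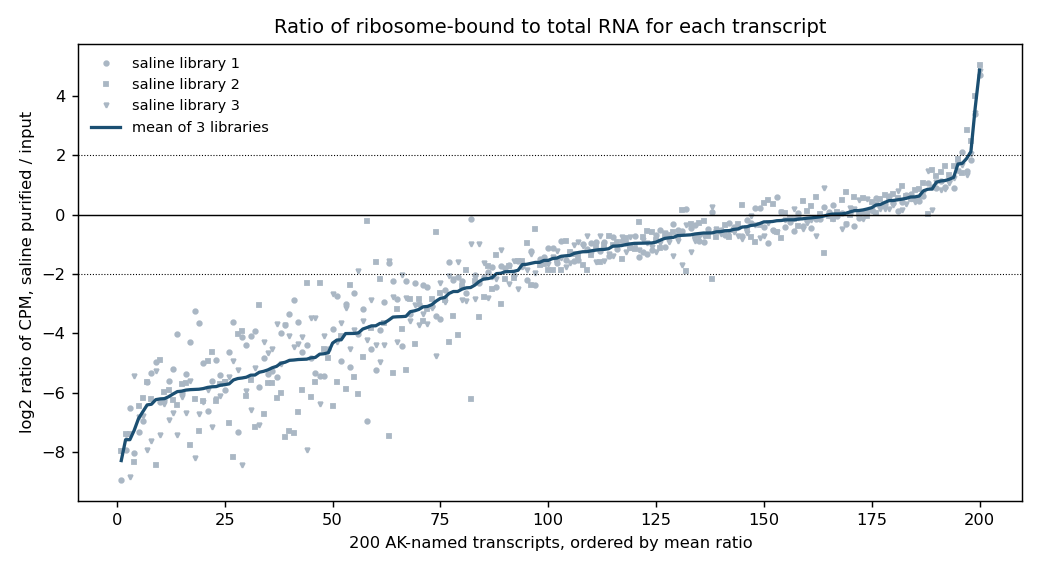
The log2 ratio of CPM in each saline purified library to the input (vertical axis) for the 200 AK transcripts ordered by their mean ratio (horizontal axis); grey marks are the 3 libraries, the line is their mean and dotted lines mark 4-fold. Of the 200, 74 lie below the lower dotted line and 2 above the upper one in all 3 libraries.

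Other sets of symbols with at least as many input counts had medians nearer the input. Among symbols with at least 192 input counts, 9784 that RefSeq lists as protein coding had a median log2 ratio of 0.0018 ± 0.07, with 6.75% at least 4-fold lower. The 190 listed as long noncoding RNA (lncRNA) had a median of −0.75 ± 0.14, with 26.8% at least 4-fold lower. The 105 other symbols that are written like sequence accessions had a median of −0.22 ± 0.08, with 10.5% at least 4-fold lower. These sets were chosen with the input in view, like the AK transcripts themselves, and were not tested against them.

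**Figure D2:**
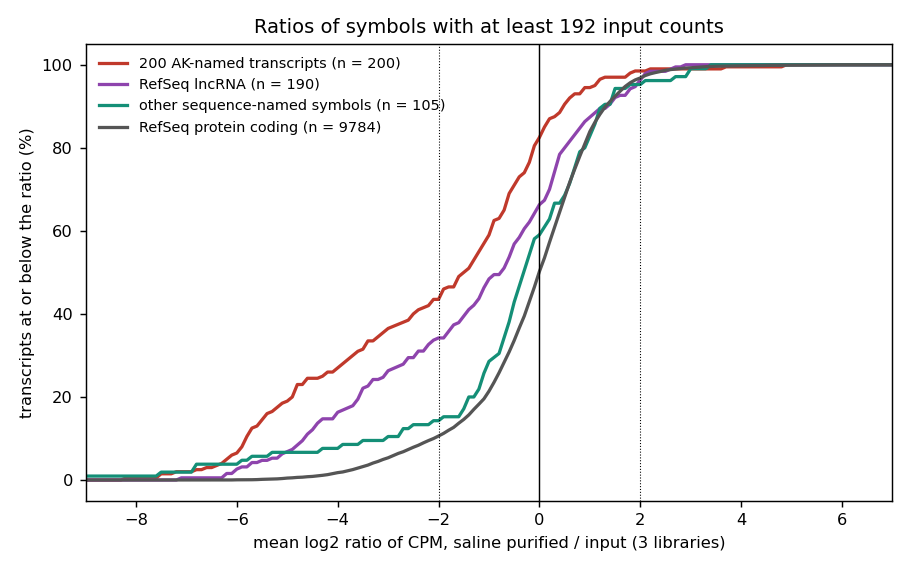
Cumulative share of symbols (vertical axis, percent) at or below a mean log2 ratio of saline purified to input CPM (horizontal axis) for the AK transcripts, RefSeq lncRNA, other sequence-named symbols and RefSeq protein coding genes, all with at least 192 input counts. The curve of the AK transcripts reaches 50% at the lowest ratio. The mean of the library medians, a slightly different measure, was −1.52 for the AK transcripts, −0.75 for lncRNA and 0.0018 for protein coding genes.

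Low ratios were more frequent among the AK transcripts with fewer input counts. In the first 50 by input count the median log2 ratio was −1.07 ± 0.08, and 10 were at least 4-fold lower. From rank 51 to 100 it was −1.03 ± 0.08, with 16 at least 4-fold lower, from rank 101 to 150 −2.24 ± 0.05, with 24, and from rank 151 to 200 −2.64 ± 0.35, again with 24. At ranks 201 to 400, outside the 200, the median was −3.86 ± 0.73, and 111 of these 200 symbols were at least 4-fold lower.

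At the edge of the choice, the last 5 taken had 192 or 193 input counts and the first 5 left out 189 to 191. Just inside, AK035606, AK084148, AK084972 and AK085685 had mean log2 ratios between −6.38 and −4.22, while AK155239 stood at −0.17 ± 0.38. Just outside, AK051417 stood at −4.98 ± 0.84, and AK047520, AK141620 and AK086065 lay between −1.52 and −0.23. AK162138, the fourth left out, measured 63.9 ± 14.1 CPM in saline purified libraries and 4.64 CPM in the input, a log2 ratio of 3.76 ± 0.34. A cut a few counts lower would have added one of the highest ratios.

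A single transcript held most of the reads. AK140265 had 1288201 input counts, 78.6% of all input counts of the 200, and the 5 with the most input counts together held 86.7%. The 200 made up 0.465%, 0.396% and 0.558% of gene counts in cocaine libraries 1 to 3 and 0.520%, 0.472% and 0.579% in yoked libraries 1 to 3. The saline libraries held 0.491%, 0.493% and 0.533%, and the input 4.01% (95% Wilson interval 4.001% to 4.013%). Without AK140265 the share was 0.480% to 0.520% in saline purified libraries and 0.859% in the input. The 9 purified libraries therefore lay close together, whichever treatment they came from, and all lay below the input.

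AK140265 had the lowest ratio of the 200. It measured 64.2, 126 and 127 CPM in saline purified libraries 1 to 3, and 31487 CPM in the input, a mean log2 ratio of −8.28 ± 0.57 (SD, n = 3), or 311-fold lower. Its purified levels rest on 1644 to 5366 counts per library, so counting error is small. Reads of a near-identical copy elsewhere in the genome would not have been counted, and how many such reads exist for this symbol is not known.

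AK018753, AK142750 and AK163440 also had high input counts and low ratios. AK018753 measured 6.52, 11.9 and 9.19 CPM after purification and 1043 CPM in the input, 117-fold lower. AK142750 measured 6.33, 10.7 and 7.08 CPM against 778 CPM, 99.5-fold lower, and AK163440 0.976, 1.43 and 1.38 CPM against 238 CPM, 191-fold lower. In each of the 3 the libraries lay within a factor of 2 of one another, and all lay far below the input.

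The other 8 of the 12 lowest ratios belonged to transcripts with 192 to 716 input counts and few purified ones, and 10 of the 12 were also among the 12 lowest with every count under 3 set to 3. AK162351 had 0, 2 and 1 counts in the saline libraries and 439 in the input, and AK084972 had 0, 2 and 1 against 192. Over the pooled saline libraries AK162351 was 355-fold lower, with a 95% counting interval of 121-fold to 1726-fold, and AK084972 155-fold lower (52.3-fold to 759-fold). AK039140 had 2, 0 and 0 counts against 243, a pooled 294-fold difference with an interval of 80.6-fold to 2445-fold. AK037592, AK165086, AK081090, AK154258 and AK142908 had 5 to 22 pooled counts, and their pooled values lay between 49.8-fold and 112-fold lower. Most of the 8 counting intervals overlap, but that of AK162351 lay above those of AK081090 (32.5-fold to 80.2-fold) and AK154258 (39.0-fold to 100.4-fold). The interval of AK039140 also lay just above that of AK081090.

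How low these ratios go can be set beside 9 long noncoding RNAs listed here as retained in the nucleus. Where these RNAs lie in the cell was not measured in these data. Of the 9, 8 were lower in all 3 saline libraries and Pvt1 was higher. Malat1, which is retained in nuclear speckles, measured 459 ± 93.2 CPM in saline purified libraries and 21553 CPM in the input, 47.7-fold lower, and Meg3, an imprinted noncoding RNA of neurons, 105 ± 24.5 CPM against 1707 CPM, 16.5-fold lower. Malat1 had the lowest mean log2 ratio of these 9, at −5.58, and Olig2 the lowest of the 51 markers of other cell types, at −5.59 ± 3.45. Olig2 had 1 count in saline library 2. Of the AK transcripts, 26 lay below both; with every count under 3 set to 3, 22 lay below Malat1. A further 43 of the 200 lay between these values and the marker median of −3.24, which 69 AK transcripts in all lay below.

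A small set of AK transcripts was higher in ribosome-bound RNA. AK049621 measured 129, 163 and 142 CPM in saline purified libraries 1 to 3, and 4.91 CPM in the input, a log2 ratio of 4.87 ± 0.17 (SD, n = 3), or 29.3-fold higher. AK042725 measured 57.7, 87.8 and 59.2 CPM against 5.48 CPM in the input, 12.2-fold higher. These are the 2 that passed 4-fold in every library, and the only AK transcripts of the 200 with a mean ratio above that of Isl1 (2.49), the lowest of the 12 cholinergic neuron markers and a transcription factor of that lineage. The cholinergic marker Chat, the enzyme that makes acetylcholine, was 54.2-fold higher in the same libraries.

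AK015544 came next, at 141, 220 and 163 CPM against 39.4 CPM, 4.36-fold higher on average, with library 1 below the 4-fold mark. AK086087 measured 40.1, 106 and 36.7 CPM against 14.5 CPM, and library 2 sets its mean. AK042944, AK184946, AK171960, AK138253, AK181950, AK085625, AK020060 and AK089957 complete the 12 highest, with mean ratios from 3.32-fold down to 1.82-fold higher. In all 12 the 3 saline libraries lay above the input.

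**Figure D3:**
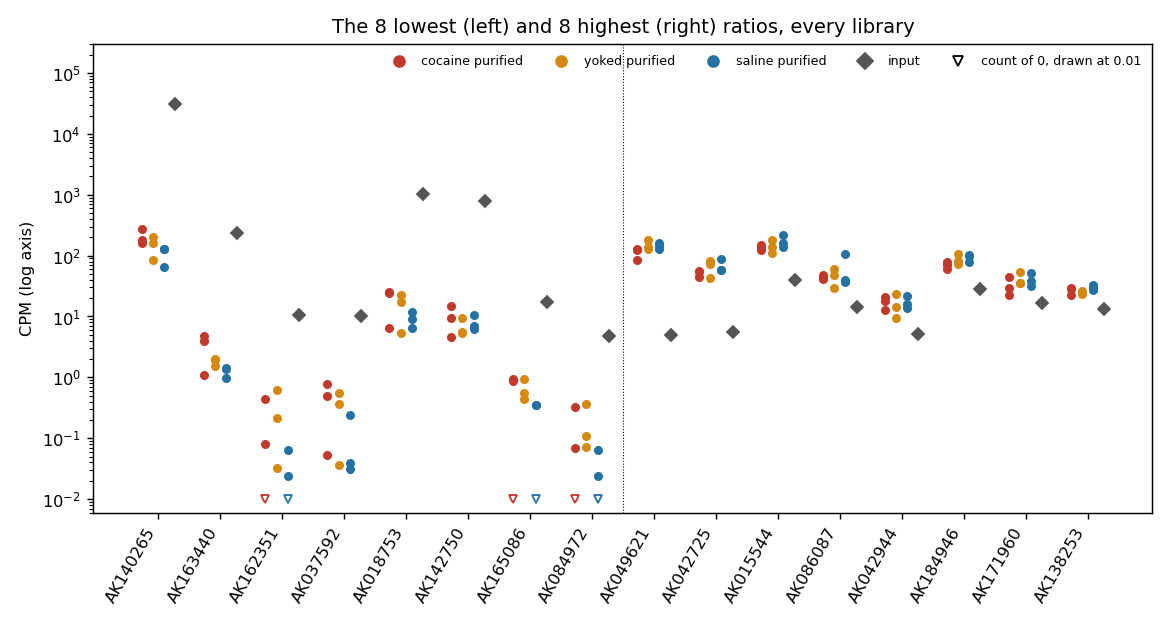
CPM (log axis) of the 8 AK transcripts with the lowest and the 8 with the highest ratio to the input; circles are the 3 cocaine, 3 yoked and 3 saline purified libraries, diamonds the single input, and open triangles counts of 0 drawn at 0.01. On the left the input lies above every purified library, and on the right below every one.

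Between these ends, some but not all of the transcripts with many reads were close to the input. AK144265, the third by input counts and first by reads in the purified libraries, measured 1001, 343 and 1554 CPM in the saline libraries and 834 CPM in the input, which lies within their range. AK018679 measured 316, 523 and 367 CPM against 603 CPM, 1.53-fold lower, and AK169831 77.3, 109 and 103 CPM against 185 CPM, 1.94-fold lower. AK138412 measured 263, 341 and 276 CPM against 189 CPM, 1.55-fold higher, and AK209647 279, 269 and 208 CPM against 180 CPM, 1.39-fold higher. AK081211, the remaining one among the first 10 by input counts, measured 52.9, 23.2 and 26.9 CPM against 276 CPM, 8.59-fold lower. The first 10 thus held 5 transcripts at least 4-fold lower in every library, 4 within 2-fold of the input on average and AK144265, whose libraries lay on both sides of it.

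The division by ratio was also present in the cocaine and yoked purified libraries, which were set against the same input. Of the 74 that were at least 4-fold lower in all 3 saline libraries, 66 were so in all 3 cocaine libraries and 57 in all 3 yoked libraries, and 74 and 71 lay below the input in all 3. Both transcripts at least 4-fold higher, AK049621 and AK042725, were so in all 9 purified libraries. Over the 9 libraries, 132 of the 200 lay below the input in every one, 17 above it in every one and 51 on both sides. Because the classes were drawn from saline values, some movement back toward the middle follows from the choice.

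The summed level of the lower class is given beside the markers of the main cell type without the tag. The 73 transcripts of that class other than AK140265 held 0.0149%, 0.0126% and 0.0165% of gene counts after cocaine and 0.0150%, 0.0161% and 0.0154% in yoked animals. After saline they held 0.0159%, 0.00993% and 0.0108%, and in the input 0.330%. The 13 spiny projection neuron markers, of the most numerous neurons of the striatum, summed to 1908, 1175 and 1564 CPM after cocaine and 1656, 1370 and 1671 CPM in yoked animals. After saline they summed to 2041, 1152 and 1098 CPM, and in the input to 8789 CPM. Saline library 1 was highest of its group in both sums, and cocaine library 2 lowest of its group in both. Yoked library 2 went opposite ways, highest of its group for the 73 transcripts and lowest for the 13 markers. The full order of the 3 libraries differed between the sums in all 3 groups. None of the 13 markers was at 0 in any library. Their part in the levels of the AK transcripts was not tested.

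Median levels were lower in all purified libraries than in the input. The median over the 200 was 4.59, 3.92 and 4.73 CPM after cocaine and 4.45, 5.50 and 4.62 CPM in yoked animals. After saline it was 5.37, 5.27 and 4.98 CPM, and in the input 12.5 CPM. All 3 cocaine medians lay below all 3 saline medians, and the yoked medians overlapped both; these medians were not tested. Between 7 and 11 of the 200 reached 100 CPM in a purified library, against 16 in the input. In 35 transcripts at least 1 purified library had a count of 0, and none was at 0 in all 9.

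The treatment comparisons do not use the input, whose counts ranked the transcripts. They are not fully independent of the choice, which was made with earlier results of these data known. Of the 200, 185 passed the filter on low counts, and the 15 that did not were all in the lower class, with a mean of at most 0.539 CPM over the purified libraries. Cocaine against saline asked whether taking the drug differs from taking saline. No AK transcript was called by edgeR's quasi-likelihood test, where 0% of the 14989 genes tested were called, and the smallest Benjamini-Hochberg adjusted p was 0.850. An unadjusted p under 0.05 was found for 12 of 185, or 6.49%, against 5.28% of all genes tested. Of the 12, 6 were higher and 6 lower, where 2.76% and 2.52% of all genes were. Leaving out 1 library gave from 5 transcripts at that p (without saline library 2) to 17 (without cocaine library 1). Without the 3 libraries numbered 2 there were 8. DESeq2 and limma voom called 0, with 15 and 12 at an unadjusted p under 0.05. The groups did not overlap in 20 of 185 (10.8%), 7 higher and 13 lower, against 10.3% of all genes tested, 4.88% higher and 5.4% lower. The shares over both directions are near those of all genes.

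The transcripts with the smallest p in either direction all missed the threshold, at a Benjamini-Hochberg adjusted p of 0.850 or more from edgeR. AK140265 measured 164, 180 and 270 CPM in cocaine libraries 1 to 3, and 64.2, 126 and 127 CPM in the 3 saline libraries. All 3 cocaine libraries lay above all 3 saline libraries, and the yoked libraries, at 86.0, 161 and 203 CPM, overlapped both. The log2 fold change of cocaine against saline was 0.96 ± 0.31 (SE). Without a filter on low counts it was 0.98 and passed, with an adjusted p of 0.00123 in edgeR's quasi-likelihood test, where 60 of 22641 genes were called. Reads that aligned to more than 1 place made up 47.2% to 56.2% in cocaine libraries and 36.4% to 50.9% in saline libraries. The 9 RNAs listed as nuclear-retained summed to 672, 919 and 1209 CPM in cocaine libraries 1 to 3. They summed to 676, 1179 and 1167 CPM in the yoked libraries and 806, 737 and 581 CPM in the saline libraries. Saline library 1 was thus highest of its group in this sum and lowest for AK140265. The part of these reads or of these RNAs in the level of AK140265 was not tested.

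Toward higher levels after cocaine, AK140147 measured 9.50, 8.72 and 4.68 CPM in the cocaine libraries, and 2.73, 2.45 and 1.76 CPM in the saline libraries. Its groups did not overlap, and its log2 fold change was 1.75 ± 0.61 (SE). AK086757 measured 3.59, 2.29 and 3.05 CPM against 0.351, 0.573 and 1.09 CPM, again without overlap (log2 fold change 2.13). AK047238 measured 78.9, 93.1 and 53.5 CPM against 58.7, 41.0 and 50.8 CPM, with library 3 after cocaine inside the saline range; its log2 fold change of 0.61 was 0.40 without cocaine library 2 and 0.26 without the 3 libraries numbered 2. AK045837 was rarely counted, at 0.408, 1.21 and 0.746 CPM against 0.0781, 0.0955 and 0.0713 CPM.

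Toward lower levels after cocaine, AK153645 measured 13.1, 5.52 and 6.38 CPM in the cocaine libraries, and 20.5, 19.1 and 13.3 CPM in the saline libraries. The 2 groups nearly met, at 13.1 and 13.3 CPM, and the log2 fold change was −1.07 ± 0.34 (SE). AK003208 measured 79.4, 57.6 and 68.1 CPM against 103, 96.7 and 92.8 CPM, AK080083 48.6, 42.1 and 48.1 CPM against 57.5, 68.8 and 61.3 CPM, and AK184946 69.7, 60.4 and 77.8 CPM against 97.8, 103 and 78.6 CPM. The groups did not overlap for any of these 3, and their log2 fold changes were −0.50, −0.42 and −0.41. AK163478 rests on saline library 2, at 4.17 CPM against 0.0390 and 0.261 CPM in the other 2, and its log2 fold change of −3.39 was −0.19 without that library and turned to 0.40 without the 3 libraries numbered 2.

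Cocaine and yoked libraries share a lane number. No AK transcript was called by edgeR, where 0% of all genes tested were called, and the smallest adjusted p was 0.9997. At an unadjusted p under 0.05 there were 5 of 185, or 2.70%, against 2.61% of all genes tested. Of the 5, 2 were higher and 3 lower, where 1.63% and 0.974% of all genes were. Leaving out 1 library gave 3 (without yoked library 2) to 14 (without cocaine library 3 or yoked library 3), and 11 without cocaine library 1 or 8 without yoked library 1. DESeq2 and limma voom also called 0, with 9 and 6 at an unadjusted p under 0.05. No overlap between the groups was found in 10 of 185 (5.41%), 4 higher and 6 lower, against 6.78% of all genes tested, 3.42% higher and 3.37% lower.

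AK038852 had the smallest p among them. It measured 11.6, 7.67 and 9.87 CPM in the cocaine libraries, and 20.7, 35.0 and 12.7 CPM in the yoked libraries, without overlap. Its log2 fold change was −1.19 ± 0.32 (SE), −0.79 with yoked library 2 left out and −0.67 without the 3 libraries numbered 2. The saline libraries, at 15.3, 15.2 and 11.9 CPM, were higher than the cocaine libraries and overlapped the yoked ones. AK140147 also lay above the yoked libraries, at 3.66, 0.560 and 4.15 CPM, with a log2 fold change of 1.47, which was 0.83 without the 3 libraries numbered 2. AK037070 measured 9.99, 4.29 and 8.75 CPM after cocaine and 12.1, 15.6 and 9.75 CPM in yoked animals, with a log2 fold change of −0.68, which was −0.25 without the 3 libraries numbered 2.

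Of the others among the smallest p, AK020060 and AK083203 rested largely on single libraries. AK020060 measured 46.1, 94.5 and 50.3 CPM in the cocaine libraries, and 39.6, 47.4 and 49.6 CPM in the yoked libraries. Its log2 fold change of 0.54 was 0.09 without cocaine library 2, the highest of the 6. AK083203 measured 1.02, 1.37 and 0.373 CPM against 1.35, 11.3 and 1.13 CPM, and its log2 fold change of −2.21 was −0.40 without yoked library 2. The remaining log2 fold changes were 0.52 for AK047238, 0.80 for AK089957, 0.62 for AK163148, −1.87 for AK008732 and −2.45 for AK084992. Without cocaine library 2, AK047238 stood at 0.30 and AK089957 at 0.45. AK089957 stood at 0.51 and AK163148 at 0.97 without yoked library 1, and AK008732 at −3.26 without cocaine library 3. Without the 3 libraries numbered 2, AK163148 stood at 0.38 and AK008732 at −0.86. AK084992 was rarely counted, at 0.408, 0.0133 and 0.305 CPM after cocaine and 1.09, 0.922 and 1.86 CPM in yoked animals, without overlap. Its log2 fold change stayed between −3.08 and −1.84 with any 1 library left out.

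Yoked against saline compared the 2 groups of controls. No AK transcript was called by edgeR, where 0% of all genes tested were called, and the smallest adjusted p was 0.999. The unadjusted p was under 0.05 for 5 of 185, or 2.70%, against 2.18% of all genes tested, and for 10 when replicate number was a block. All 5 were higher and 0 lower, where 1.38% and 0.801% of all genes were. There were 12 without cocaine library 2, 11 without yoked library 1, 8 without saline library 3 and 10 without the 3 libraries numbered 2. DESeq2 and limma voom called none, with 9 and 6 at an unadjusted p under 0.05. Yoked and saline values did not overlap in 19 of 185 (10.3%), 13 higher and 6 lower, against 7.05% of all genes tested, 4.3% higher and 2.74% lower.

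The 5 had low mean levels, from 1.79 to 4.60 CPM in the yoked libraries and under 1 CPM in the saline libraries. AK083203 measured 1.35, 11.3 and 1.13 CPM in the yoked libraries, and 0.976, 0.318 and 0.736 CPM in the saline libraries. AK008732 measured 1.69, 6.12 and 3.02 CPM against 1.02, 0.605 and 0.428 CPM, AK039603 1.36, 3.79 and 2.55 CPM against 0.508, 0.382 and 0.855 CPM, and AK171899 1.35, 2.93 and 1.09 CPM against 0.508, 0.0955 and 0.0475 CPM. Yoked library 2 was the highest library for each of them. AK089209 had 9.55 CPM in yoked library 2 and under 1 CPM in the other yoked and the saline libraries, and its log2 fold change of 3.47 was 0.03 without that library and turned to −0.55 without the 3 libraries numbered 2. The log2 fold change of AK083203, 2.69, was 0.89 without yoked library 2, and that of AK171899, 3.04, was 4.57 without saline library 1.

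Toward lower levels in yoked animals, AK080083 measured 53.2, 49.2 and 47.0 CPM in the yoked libraries, and 57.5, 68.8 and 61.3 CPM in the saline libraries, with a log2 fold change of −0.34 ± 0.16 (SE). AK153645 measured 12.9, 11.8 and 8.04 CPM against 20.5, 19.1 and 13.3 CPM. Neither overlapped with saline, and both had also lain lower after cocaine, in a comparison that uses the same saline libraries. AK042859, AK003208 and AK135172 had log2 fold changes of −0.54, −0.30 and −0.33. AK042859 stood at −0.15 without saline library 2, and AK135172 at −0.19 without yoked library 3 and −0.22 without saline library 1. The test for any difference among the 3 groups called 0 AK transcripts in edgeR and in the other 2 tools, against 0% of all genes tested, with 9 of 185 at an unadjusted p under 0.05 in edgeR (4.86%), against 2.80% of all genes tested, 12 in DESeq2 and 8 in limma voom.

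The interval around a fold change was wider for AK transcripts than for genes in general. The 95% interval reached a median of 0.92 on the log2 scale to either side, or 1.89-fold, over the 185 in cocaine against saline, and 0.64, or 1.56-fold, over all 14989 genes. Among the 98 AK transcripts of at least 5 CPM over the purified libraries it was 0.63, or 1.55-fold, against 0.50, or 1.42-fold, over all genes of that level. Of these 98, 38 had a higher and 60 a lower fitted level after cocaine than after saline (median log2 fold change −0.16), and 39 and 59 in yoked against saline (median −0.14). Over all genes of at least 5 CPM, 47.8% and 44.5% had the higher level, with medians of −0.02 and −0.03. These medians were −0.10 and −0.03 without saline library 2 and −0.09 in both comparisons without the 3 libraries numbered 2, and the median in yoked against saline was −0.08 without yoked library 3. For cocaine against yoked the counts were 40 and 58 (median −0.05), and the median turned to 0.01 without cocaine library 3 and 0.03 without yoked library 2.

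**Figure D4:**
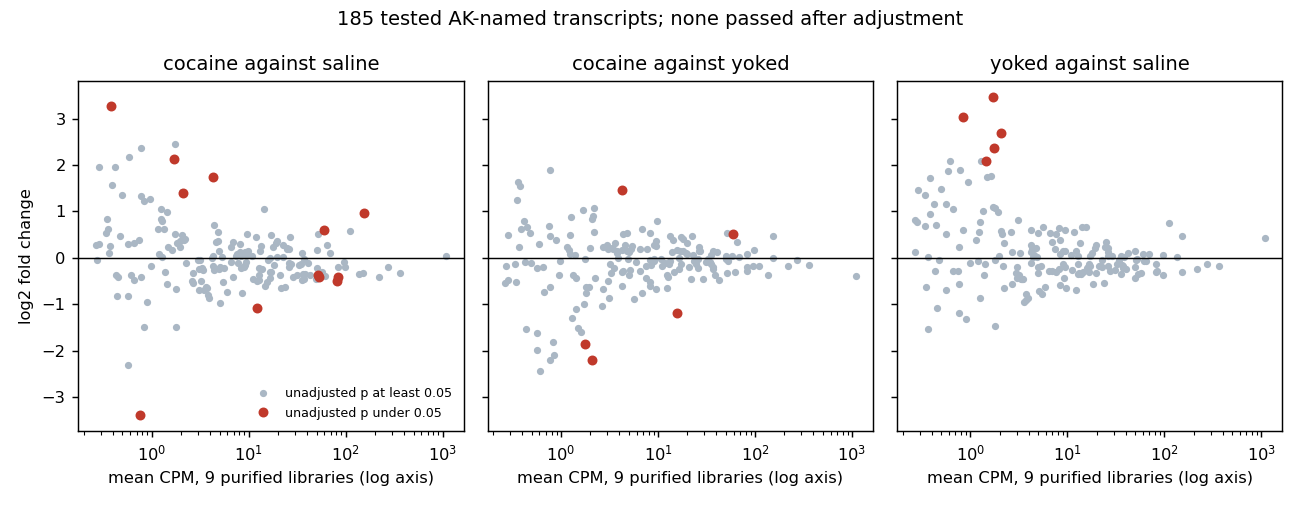
Fitted log2 fold change (vertical axis) against mean CPM over the 9 purified libraries (horizontal axis, log scale) for the 185 AK transcripts tested, in the 3 comparisons; dark red points have an unadjusted p under 0.05. These number 12, 5 and 5 from left to right, none passed after adjustment, and fold changes spread most widely at low CPM.

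How far a transcript varied over the 9 purified libraries differed widely. Over the 98 of at least 5 CPM the median SD of log2 CPM was 0.37, against 0.29 over 10247 symbols of that level. AK138412 varied least, from 238 to 341 CPM (SD 0.15), followed by AK138253, from 22.4 to 33.1 CPM (SD 0.18), AK033552, AK039686 and AK165889. AK144265 varied most, 15.8-fold, with an SD of 1.45, followed by AK155692 (8.43-fold, SD 1.05), AK018753 (SD 0.89), AK084495 (SD 0.87) and AK043046 (SD 0.84).

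AK144265 kept 1 order of library numbers in every group. It measured 925, 144 and 1942 CPM in cocaine libraries 1 to 3 and 1404, 214 and 2264 CPM in yoked libraries 1 to 3. Saline libraries 1 to 3 measured 1001, 343 and 1554 CPM. Library 2 was the lowest and library 3 the highest in every group. AK140198, AK084495 and AK042944 also had library 2 lowest in every group, so 4 of the 98 did (4.08%), against 5.26% of all symbols of at least 5 CPM.

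AK155692 measured 54.1, 209 and 86.6 CPM in cocaine libraries 1 to 3 and 158, 26.1 and 220 CPM in yoked libraries 1 to 3. Saline libraries 1 to 3 measured 84.7, 41.9 and 113 CPM. Here cocaine library 2 was high and the other 2 libraries numbered 2 were low. The share of reads that aligned to more than 1 place was 47.2%, 56.2% and 54.3% after cocaine and 50.8%, 36.3% and 57.1% in yoked animals. After saline it was 46.5%, 36.4% and 50.9%. Within each group the library with the highest share was the highest for AK155692, and the one with the lowest share the lowest. This match was seen after AK155692 was picked as highly variable. How many other symbols follow the same order was not counted. The part of this share in the level of AK155692 was not tested.

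**Figure D5:**
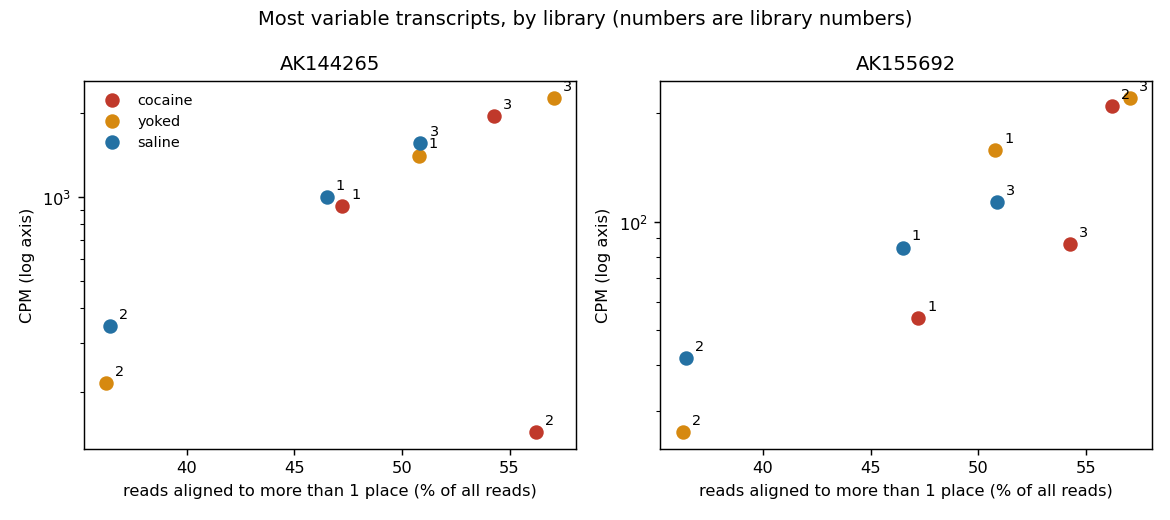
CPM (log axis) of the most variable AK transcripts, AK144265 and AK155692, against the share of reads that aligned to more than 1 place (percent of all reads) in the 9 purified libraries; colours are treatment groups and numbers are library numbers. AK144265 is lowest in library 2 of every group, including cocaine library 2 with a share of 56.2%, and AK155692 is at 209 CPM in that library.

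Library 1 was the lowest of its group for 3 of the transcripts farthest below the input. AK018753 measured 6.40, 24.5 and 25.2 CPM after cocaine, against 5.37, 22.9 and 17.0 CPM in yoked animals and 6.52, 11.9 and 9.19 CPM after saline. AK140265 and AK142750 had the same library lowest in every group. Of the 98 AK transcripts of at least 5 CPM 10 did (10.2%), against 8.57% of all symbols of that level.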

How the data were processed

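The authors deposited raw read counts per symbol, 1 table per library. The submitters' processing notes name STAR 2.0.0e, HTSeq and mm10; annotation, strand setting and filters are not given in the sources used here, so reads of overlapping or antisense transcripts may be mixed. The row named unknown, with at most 1 count per library, and the reads assigned to no gene (47.6% to 67.4% of all reads in purified libraries, 55.1% in the input) were left out.

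The 200 transcripts, the lists and the tests were chosen with earlier results of these data known. CPM is over gene counts; the spread over libraries is the SD of log2 CPM after 0.5 was added to each count. Ratios to the input are log2 CPM ratios per saline library, with a count of 0 set to 3 and counts of 1 and 2 kept. Treatment fits used edgeR 4.0.16 under R 4.3.3, by its quasi-likelihood F-test (robust fit, TMM scaling, minimum count 10, minimum total 15) in 1 fit of the 9 purified libraries with 6 residual degrees of freedom; genes were called at a Benjamini-Hochberg adjusted p under 0.05 over 14989 genes. DESeq2 1.42.0 and limma 3.58.1 were alternatives. The fitting script was first tested on simulated data. Intervals are at the 95% level; those of shares (Wilson) and of pooled ratios (exact binomial) cover counting error only.

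Named transcripts are the first 10 by input counts, the 12 highest and 12 lowest ratios, the first 10 by purified reads, the 5 smallest p per direction and comparison, the 5 most and 5 least variable of at least 5 CPM, and ranks 196 to 205; others are named where a count is small. Same-numbered libraries deviated together from their group means. Correlations were 0.11 to 0.15 between cocaine and yoked and 0.13 to 0.18 between yoked and saline, above the limit of 0.1 for pairs. Between cocaine and saline they were 0.08 to 0.11, below that limit in 1 pair. The main fit did not use the numbers, so its p values, SEs and intervals ignore any such pairing. An alternative edgeR fit with replicate number as a block called 0 AK transcripts in each comparison. In that fit 6 of 185 had an unadjusted p under 0.05 in cocaine against yoked and 10 in yoked against saline.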

Additional observations from a re-analysis of the deposited data

How the results depend on the processing

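No AK transcript was called in any treatment comparison under the replicate block (0), other scalings, DESeq2, limma voom, fits of 2 groups or with a library left out (0 to 0 in each comparison). Without a filter on low counts, 1 was called for cocaine against saline, AK140265, and 2 for any difference, AK140265 and AK039140. With the replicate block, unadjusted p values under 0.05 numbered 19 of 185 in cocaine against saline, where the numbers do not meet the rule for pairs, against 12 without it. Of 509 values of named transcripts under alternatives, 506 kept direction and side of the threshold. Hardly any value passed the threshold in any setting, so this count reflects mainly direction and not size. Values that shrank strongly count as kept, such as AK089209 in yoked against saline, at 0.03 without yoked library 2 against 3.47. AK163478 turned to 0.40 in cocaine against saline and AK089209 to −0.55 in yoked against saline without the 3 libraries numbered 2. The cause was not tested. The median log2 ratio to the input, −1.52, was −1.43 with TMM scaling, −1.57 with AK symbols left out of the totals, −1.61 with cocaine and −1.41 with yoked libraries in place of saline, and −1.55 to −1.50 with a saline library left out. Counts of transcripts at least 4-fold lower were 76 to 79 and at least 4-fold higher 2 to 3 with a saline library left out. These counts cannot fall when a library is left out, since fewer libraries then have to pass. With the first 100 in place of 200, 26 were at least 4-fold lower and 0 higher, with a median of −1.06; with the first 400, 185 and 4, with a median of −2.55. With every count under 3 set to 3, an alternative chosen after seeing the data, 74 of the 200 were at least 4-fold lower and 2 higher, with a median of −1.52. At 2-fold, 98 were lower and 7 higher. The share of gene counts was 0.453% and 0.540% in saline libraries, and 3.93% and 4.07% in the input, for the first 100 and 400, and 0.859% in the input without AK140265. Leaving out a library gave 0.431% to 0.512% for cocaine, 0.496% to 0.549% for yoked and 0.492% to 0.513% for saline. The input has no replicate, and 24 of the 200 had a saline library at 0, where depth sets the ratio.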
